A study of Mus musculus with 6 samples.

Results

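The 34 genes described here encode the cyclins, kinases, motors and structural proteins that act in G2 phase and mitosis. They are found in the table by gene symbol, a rule that uses no measured value. All 34 were among the 40773 symbols of the deposited count table, and all 34 passed the filter on low counts, which left 11498 genes. RNA came from RAW264.7, a mouse macrophage line of ATCC whose genotype the labels give as plain. Both groups received LPS at 100 ng/mL for 24 h. LPS, or lipopolysaccharide, comes from the outer membrane of bacteria and switches macrophages to an inflammatory state. In the second group 3A2 was added, an antibody that neutralizes the membrane-bound matrix metalloproteinase MMP14, at 50 µg/mL. Each group had 3 biological replicates, which makes 6 libraries, and since all are cultures of 1 cell line, p-values measure the spread between cultures and not between animals. Cells without LPS and cells with a control antibody were not analysed here.

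Cells that enter G2 accumulate cyclin B and switch on the kinase CDK1, which starts mitosis. Polo-like and Aurora kinases then build the spindle, kinetochores attach chromosomes to it, and the spindle checkpoint holds the anaphase-promoting complex back until every chromosome is attached. CDC20 finally activates that complex, which marks cyclin B and securin for destruction, and the cell divides. The mRNAs of these genes are low in resting cells and are made together late in the cycle, when repression by the DREAM complex is lifted and B-MYB and FOXM1 act at their promoters. RAW264.7 is a transformed line that divides in culture, unlike most tissue macrophages, and LPS is known to slow macrophage division.

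Late cell cycle promoters are known for a CCAAT box, bound by NF-Y, and for the cell cycle homology region TTTGAA, which DREAM and B-MYB complexes read. Windows of 300 bases, 250 before and 50 after the transcription start, were taken from RefSeq (build GRCm38.p6) for 29 of the 34 genes. Both motifs were searched on both strands, as CCAAT or ATTGG and as TTTGAA or TTCAAA. The pair can share bases where they adjoin, which happened in 1 of the 29 windows. CCAAT was in 24 of the 29 windows (82.8%) and in 40% of the 9018 windows of genes tested here. TTTGAA was in 24 as well (82.8%), against 12.5%. In all, 21 of 29 windows (72.4%) held both, against 5.53% of the tested genes' windows and 7.16% of all 27025. A match is a description of letters and not a binding site.

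The 5 stretches below are examples, picked by hand from genes whose levels are given in full, and hold both motifs before the start. Other such genes with both motifs in the window, among them Plk1 and Kif23, are not shown. Capitals mark CCAAT or ATTGG and TTTGAA or TTCAAA. Each is written 5′ to 3′ on the gene's strand and leaves out bases next to the start that are annotated as untranslated region of a transcript. For Cdk1 this is chr10:69352939-69353012 (minus strand), for Cdc20 chr4:118437353-118437443 (minus), for Top2a chr11:99024190-99024389 (minus), for Kif11 chr19:37376282-37376381 (plus) and for Mki67 chr7:135716380-135716579 (minus).
Cdk1: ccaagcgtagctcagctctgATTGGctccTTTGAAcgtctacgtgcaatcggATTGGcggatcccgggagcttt
Cdc20: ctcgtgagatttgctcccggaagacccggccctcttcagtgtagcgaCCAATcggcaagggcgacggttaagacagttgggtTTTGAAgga
Top2a: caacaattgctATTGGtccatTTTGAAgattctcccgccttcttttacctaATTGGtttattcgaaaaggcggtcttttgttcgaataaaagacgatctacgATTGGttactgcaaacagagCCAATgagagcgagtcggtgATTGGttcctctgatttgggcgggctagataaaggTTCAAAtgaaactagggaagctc
Kif11: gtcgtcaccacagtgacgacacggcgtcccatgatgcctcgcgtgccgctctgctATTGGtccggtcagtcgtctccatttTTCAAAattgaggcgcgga
Mki67: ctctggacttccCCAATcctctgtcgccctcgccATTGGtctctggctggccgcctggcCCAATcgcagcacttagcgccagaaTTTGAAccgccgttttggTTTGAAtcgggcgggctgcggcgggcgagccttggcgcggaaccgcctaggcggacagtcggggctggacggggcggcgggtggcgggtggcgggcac
Counting both strands, Cdc20 and Kif11 show 1 CCAAT box and 1 TTTGAA, Cdk1 2 and 1, Mki67 3 and 2, and Top2a 5 and 2. The stretches differ in length, so these counts do not compare the genes. Cdk1 has 74 bases, Cdc20 91, Kif11 100, and Mki67 and Top2a 200 each. In the full windows, which are equal in length, Kif11 holds 1 and 1 and Cdc20 2 and 1. Cdk1 and Mki67 each hold 3 and 2 there, and Top2a 6 and 2. In Kif11 the TTCAAA begins 19 bases before the start and the ATTGG 45 bases before it, and in Top2a the TTCAAA begins 23 bases before it.

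With 3A2 the mRNA levels of G2 and mitosis genes were close to those with LPS alone. By edgeR's quasi-likelihood test, 0 of the 34 genes passed an adjusted p of 0.05, and neither did any of the 11498 genes (0%). DESeq2 and limma-voom called 0 of them too. Fold changes, given throughout as LPS plus 3A2 over LPS, ran from 0.877 for Kif23 to 1.12 for Ect2. Of the 34 genes 15 lay above 0 on the log2 scale and 19 below, or 44.1% above, where 50.4% of all genes did. The median log2 fold change was -0.0078 for the 34 genes and 0.0017 for all genes. This balance turned with single libraries: 19 genes lay above 0 without LPS replicate 1 (median 0.01), 20 without LPS replicate 2 (median 0.018) and 13 without LPS replicate 3 (median -0.034). Because the samples are bulk RNA, the share of cells in G2 and mitosis and the level of these mRNAs per cell cannot be told apart.

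The comparison bounded each gene closely. For 34 of 34 genes the whole 95% interval was narrower than a 1.5-fold change up or down, against 79.6% of all genes. Among the 5702 genes at least as abundant as Ttk, the lowest of the 34 in CPM, the share was 98.9%. Within 1.25-fold there were 28 of the 34, against 42.8% of all genes and 76.1% of those 5702. That set has a floor in CPM but no upper limit, so it is not matched in abundance. The lowest interval bound was 0.778, for Cdca8, and the highest 1.33, for Ect2. Counts of a single gene in a library ran from 162 to 5166, and the 34 genes together held between 19991 and 26358 counts per library. The median coefficient of variation between replicates was 4.44% with LPS and 7.03% with 3A2, where counting alone gives a median of 4.78%.

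**Figure D1:**
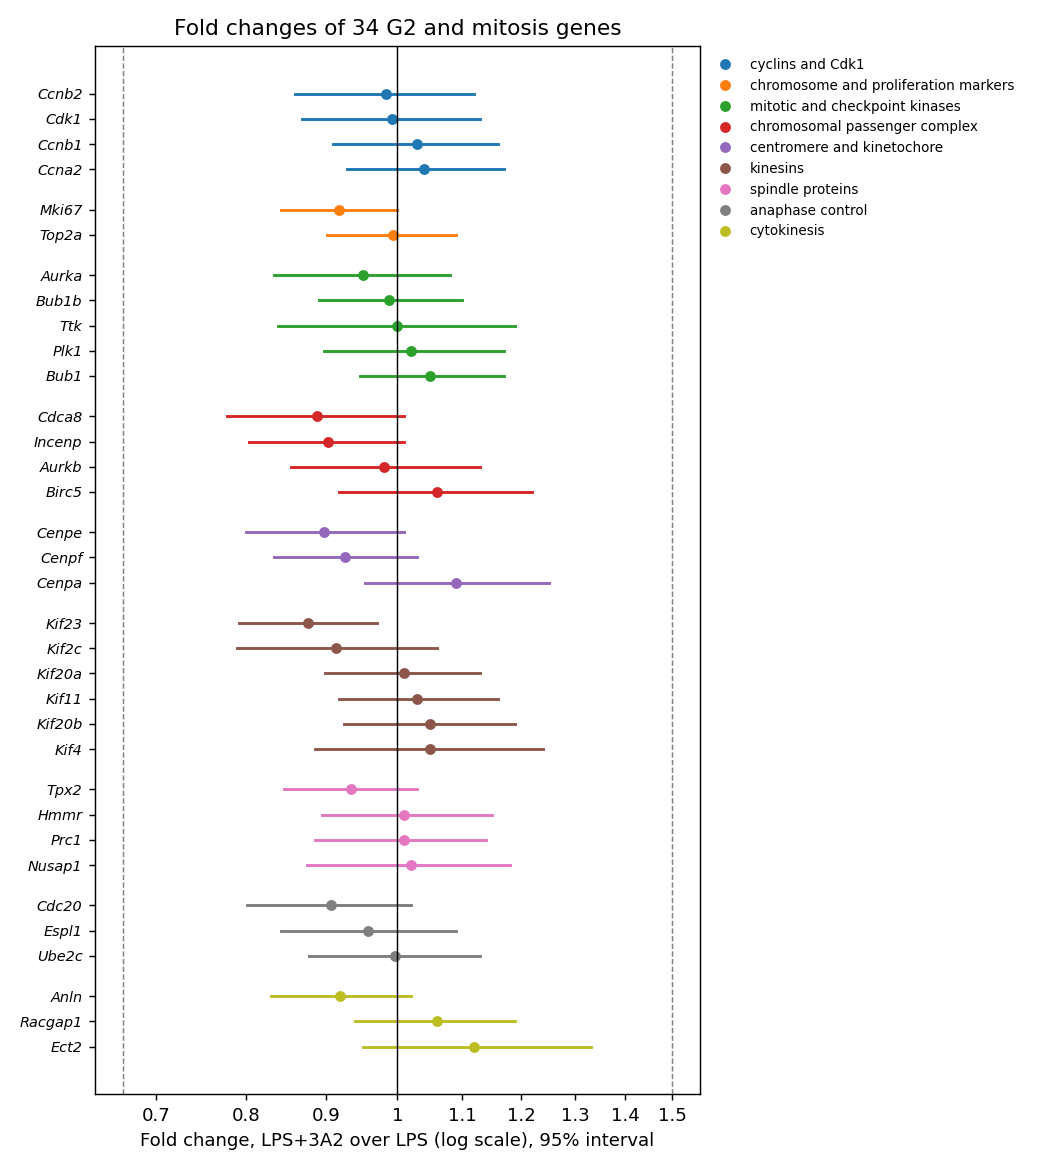
Fold change of each of the 34 genes (points, LPS plus 3A2 over LPS on a log scale) with its 95% interval (lines), grouped and coloured by role. Dashed lines mark 1.5-fold in either direction, and every interval lies between them; only that of Kif23 (0.792 to 0.971) leaves out 1.

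Levels between genes were compared per length, as CPM (counts scaled to library size) per kilobase of annotated exon (GENCODE M21, all exons of a gene merged). With LPS they ran from 5.99 CPM per kilobase for the checkpoint kinase gene Ttk to 67.2 for Mki67. Ccnb2, Top2a, Tpx2 and Cdc20 followed Mki67 at 36.4, 36.3, 34.7 and 34.2. Those 4 neighbours lie closer together than the spread of Ccnb2 between replicates, a coefficient of variation of 10.3%. With 3A2 the lowest and highest genes were the same, at 6.01 and 61.7. The exon lengths are those of the annotation and may include ends that these cells do not use.

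Among the mitotic cyclins and CDK1 no shift was seen. Cdk1, the kinase that drives entry into mitosis, measured 57.3, 66.9 and 64.5 CPM with LPS and 68.5, 56 and 62.9 CPM with 3A2. The lowest and the highest of the 6 libraries both carried 3A2, so the groups overlap. The fold change of Cdk1 was 0.992 (95% interval 0.869 to 1.13, adjusted p = 0.987). Ccnb1, its cyclin B partner, measured 77.9, 84.6 and 80 CPM with LPS and 88.1, 73.9 and 87.1 CPM with 3A2. Here too the 3A2 libraries lay on both sides of the LPS libraries, at 1.03-fold (0.91 to 1.16, adjusted p = 0.948). Ccna2, whose cyclin acts in S phase and G2, stood at 1.04-fold (0.928 to 1.17) and Ccnb2, a second B-type cyclin, at 0.983-fold (0.86 to 1.12).

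The proliferation marker Mki67 lay slightly lower with 3A2 without passing the test. Ki-67, its protein, coats mitotic chromosomes and keeps them apart. Mki67 measured 680, 691 and 658 CPM with LPS and 657, 608 and 597 CPM with 3A2. The groups do not overlap, though the lowest LPS library and the highest 3A2 library are almost equal. With LPS the mean was 676 ± 17 CPM (SD, n = 3), and with 3A2 it was 621 ± 32.1 CPM (SD, n = 3). That is 0.918-fold (95% interval 0.842 to 1). By edgeR the adjusted p was 0.748. Top2a, which encodes the topoisomerase that untangles sister chromatids, measured 340, 333 and 310 CPM with LPS and 334, 298 and 343 CPM with 3A2. Its groups overlap, and it stood at 0.993-fold (0.901 to 1.09, adjusted p = 0.981). Both are used as markers of cycling cells.

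**Figure D2:**
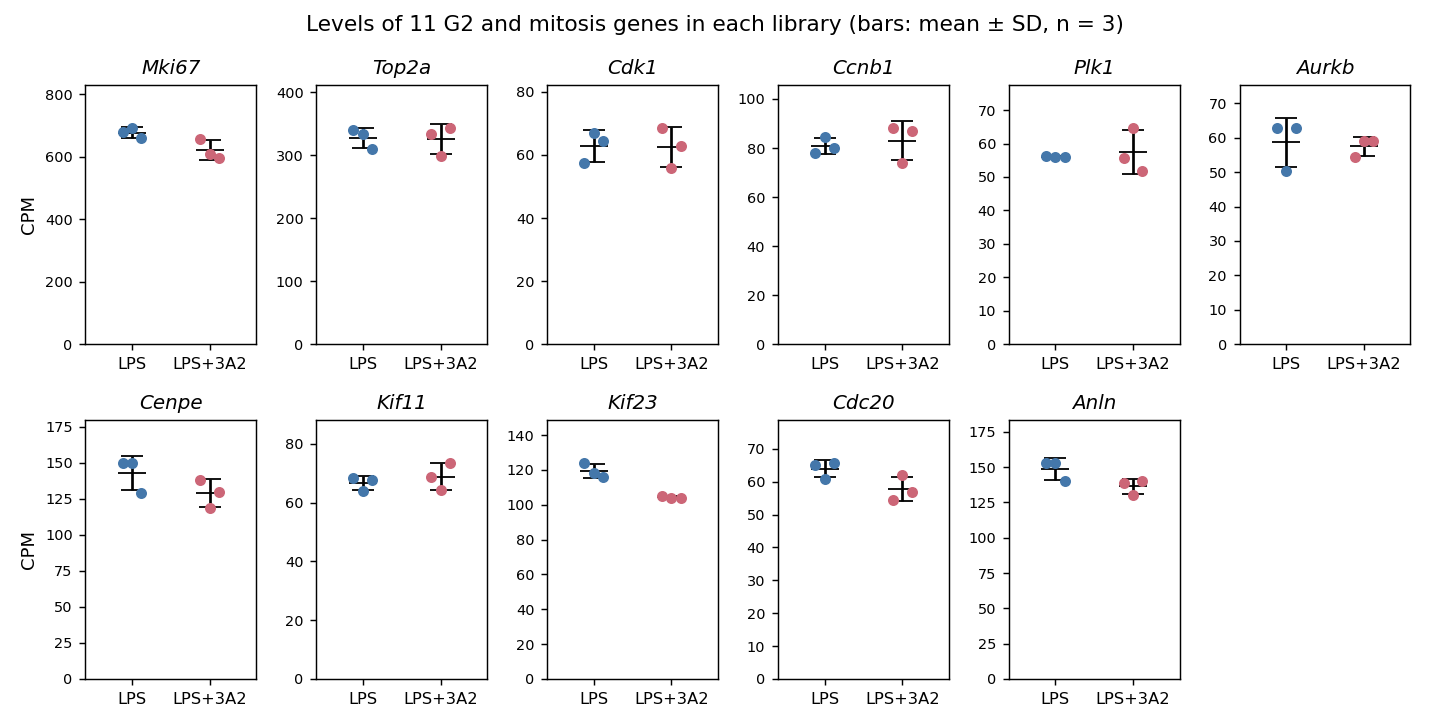
CPM of 11 genes in each library (points), with mean and SD of the 3 replicates of a group (bars); the vertical axes start at 0. In Kif23 and Mki67 the LPS plus 3A2 libraries all lie below the LPS libraries, and in the other 9 genes the groups overlap.

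The mitotic and checkpoint kinases had 2 of 5 genes above 0. Plk1, the polo-like kinase of centrosome maturation and mitotic entry, measured 56.2, 56.1 and 55.9 CPM with LPS and 55.7, 64.6 and 51.8 CPM with 3A2. The 3 LPS libraries were nearly equal, closer than the 5.18% that counting gives, while 3A2 replicate 2 was highest and replicate 3 lowest. Plk1 stood at 1.02-fold (95% interval 0.897 to 1.17, adjusted p = 0.952). Aurka, the Aurora kinase of the spindle poles, stood at 0.95-fold (0.833 to 1.08). Of the checkpoint kinases, Bub1 stood at 1.05-fold (0.946 to 1.17), Bub1b, which encodes BUBR1 of the mitotic checkpoint complex, at 0.988-fold (0.891 to 1.1), and Ttk at 1-fold (0.839 to 1.19).

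The chromosomal passenger complex joins Aurora B to INCENP, survivin and borealin and corrects faulty attachments. Aurkb, its kinase, measured 62.8, 50.4 and 62.8 CPM with LPS and 54.4, 59 and 59.1 CPM with 3A2. LPS replicate 2 was the lowest library of all, and the fold change was 0.981 (95% interval 0.855 to 1.13, adjusted p = 0.966). Incenp, the scaffold, measured 120, 116 and 119 CPM with LPS and 110, 116 and 93.5 CPM with 3A2. Cdca8, which encodes borealin, measured 64, 62.1 and 61.6 CPM with LPS and 58.7, 59.9 and 47.9 CPM with 3A2. In both genes the third 3A2 library was well below the other 5. Incenp stood at 0.903-fold (0.803 to 1.01) and Cdca8 at 0.888-fold (0.778 to 1.01), each with an adjusted p of 0.761. Without 3A2 replicate 3 they stood at 0.958-fold and 0.948-fold. Without 3A2 replicate 2 they moved the other way, to 0.861-fold (adjusted p = 0.204 by edgeR) and 0.853-fold (adjusted p = 0.257). Birc5, which encodes survivin, stood at 1.06-fold (0.918 to 1.22), so the 4 subunit genes did not lie on 1 side.

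Of the centromere and kinetochore genes, Cenpe and Cenpf lay below 0 and Cenpa above. Cenpe, a kinesin that moves chromosomes to the spindle equator, measured 150, 150 and 129 CPM with LPS and 138, 119 and 130 CPM with 3A2. LPS replicate 3 lay among the 3A2 libraries, so the groups overlap. Means were 143 ± 12.2 and 129 ± 9.74 CPM (SD, n = 3), or 0.897-fold (95% interval 0.8 to 1.01, adjusted p = 0.757). Cenpf, a large kinetochore protein, stood at 0.926-fold (0.833 to 1.03). Cenpa, the histone H3 variant that defines the centromere, stood at 1.09-fold (0.954 to 1.25).

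Kif23 had the smallest p-value of the 34 genes. It encodes MKLP1, the kinesin of centralspindlin, which gathers at the midzone between the separating chromosomes and sets the site of cleavage. It measured 124, 118 and 116 CPM with LPS and 105, 104 and 104 CPM with 3A2. All 3A2 libraries lay below all LPS libraries. The 3A2 libraries were nearly equal among themselves, with a coefficient of variation of 0.489%. Counting alone gives 3.68%, so their SD is smaller than sampling alone would give. With LPS the mean was 119 ± 3.89 CPM (SD, n = 3), and with 3A2 it was 105 ± 0.511 CPM (SD, n = 3). That is 0.877-fold (95% interval 0.792 to 0.971). The unadjusted p was 0.014 and the adjusted p over all genes 0.719 by edgeR. With each library left out in turn the fold change stayed between 0.866 and 0.894. In those edgeR fits the unadjusted p ran from 0.00828 to 0.0683 and the adjusted p from 0.243 to 0.996. Racgap1, which encodes the partner of MKLP1 in centralspindlin, stood on the other side at 1.06-fold (0.939 to 1.19).

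Other kinesins lay on both sides of 0. Kif11, the motor that pushes spindle poles apart, measured 68.4, 63.8 and 67.6 CPM with LPS and 68.8, 64.3 and 73.5 CPM with 3A2. The groups overlap, with 3A2 replicate 3 highest, and the fold change was 1.03 (95% interval 0.918 to 1.16, adjusted p = 0.929). Kif2c, which takes microtubule ends apart at centromeres, stood at 0.914-fold (0.789 to 1.06). Kif20a, which carries the passenger complex to the midzone, stood at 1.01-fold (0.899 to 1.13). Kif20b, a kinesin of cytokinesis, and Kif4, a chromosome-bound motor, both stood at 1.05-fold (0.924 to 1.19 and 0.885 to 1.24). Of the 6 kinesin genes 4 lay above 0.

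Of the 4 spindle protein genes 3 lay above 0, close to 1-fold, and Tpx2 lay below. Tpx2, which activates Aurora A at the spindle, measured 164, 162 and 161 CPM with LPS and 157, 155 and 142 CPM with 3A2. Its groups do not overlap, at 0.934-fold (95% interval 0.846 to 1.03, adjusted p = 0.813). Hmmr and Prc1, whose protein crosslinks the midzone, each stood at 1.01-fold (0.895 to 1.15 and 0.886 to 1.14), and Nusap1, a microtubule bundler, at 1.02-fold (0.875 to 1.18).

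Genes of anaphase control lay below 0 in 3 of 3, but only Cdc20 stayed below 0 in every alternative setting. Cdc20, the activator of the anaphase-promoting complex, measured 65, 60.9 and 65.7 CPM with LPS and 54.5, 61.9 and 56.9 CPM with 3A2. LPS replicate 2 lay below 3A2 replicate 2, so the groups overlap. Means were 63.9 ± 2.62 and 57.8 ± 3.75 CPM (SD, n = 3), or 0.906-fold (95% interval 0.801 to 1.02, adjusted p = 0.793). Espl1, which encodes separase, the protease that opens cohesin rings, stood at 0.958-fold (0.842 to 1.09). Ube2c, the ubiquitin-conjugating enzyme of the complex, stood at 0.997-fold (0.878 to 1.13).

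Cytokinesis genes lay on both sides. Anln, which encodes the cleavage furrow scaffold anillin, measured 153, 153 and 140 CPM with LPS and 139, 130 and 140 CPM with 3A2. LPS replicate 3 and 3A2 replicate 3 both read 140 CPM, so the groups overlap, and the fold change was 0.919 (95% interval 0.83 to 1.02, adjusted p = 0.781). Ect2, the exchange factor that activates RhoA at the furrow, measured 41.7, 44.8 and 38.5 CPM with LPS and 46.4, 38.9 and 55.6 CPM with 3A2. Its high mean with 3A2 came from replicate 3. Ect2 stood at 1.12-fold (0.951 to 1.33, adjusted p = 0.813), at 1.02-fold without 3A2 replicate 3 and at 1.22-fold without 3A2 replicate 2 (adjusted p = 0.202).

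All 3A2 libraries lay below all LPS libraries for 4 of the 34 genes (11.8%), Kif23, Mki67, Cdca8 and Tpx2, where 6.46% of all genes did. They lay above for 0, where 5.84% of all genes did. At an unadjusted p under 0.05 there was 1 gene, Kif23, lower with 3A2 (2.94%), against 3.09% of all genes, and 0 were higher, against 3.43%. In either direction 6.51% of all genes did. With 34 genes these shares rest on 1 and 4 genes. Across all alternative settings, 10 genes stayed below 0 (Anln, Cdc20, Cdca8, Cenpe, Cenpf, Incenp, Kif23, Kif2c, Mki67 and Tpx2). Another 7 stayed above 0 (Birc5, Bub1, Cenpa, Ect2, Kif11, Kif20b and Racgap1). The other 17 changed side in at least 1 setting. These settings reuse the same libraries, and the share of all genes that kept their side was not counted.

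**Figure D3:**
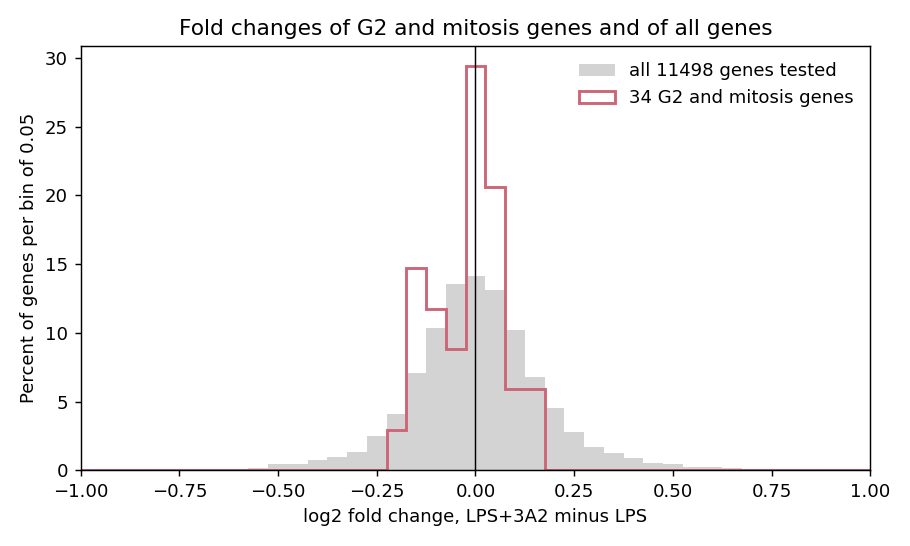
Distribution of log2 fold changes (LPS plus 3A2 minus LPS) for all 11498 genes tested (grey) and for the 34 genes (outline), as percent of genes per bin of 0.05. The 34 genes lie inside the range of the bulk of all genes, with a median of -0.0078 against 0.0017.

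Genes with and without the promoter motifs lay on both sides of 0. The 21 genes with both motifs had 8 above 0 and 13 below and a median log2 fold change of -0.011. Those with CCAAT alone, Bub1, Ccnb1 and Cenpe, had a median of 0.037, and those with TTTGAA alone, Anln, Kif20b and Kif2c, of -0.12. Birc5 and Nusap1 held neither, at 1.06-fold and 1.02-fold. These values are a description, with no test between the groups of genes.

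By library, the 34 genes varied little as a set. Their median deviation from each gene's mean over the 6 libraries, on the log2 scale, was 0.045, 0.036 and -0.024 with LPS and 0.023, -0.027 and -0.036 with 3A2. The lowest and the highest deviation of a single gene, -0.29 in Cdca8 and 0.34 in Ect2, were both in 3A2 replicate 3. In that library the 13 mitochondrial mRNAs had a median of 0.39, the 78 ribosomal protein mRNAs of -0.14 and the 63 histone mRNAs of -0.17. As fold changes between groups, 13 of 13 mitochondrial mRNAs lay above 0, 66 of 78 ribosomal protein mRNAs below and 46 of 63 histone mRNAs below. Cdca8, Incenp and Ect2 without that library are given above. Over the 6 libraries, Cenpe (r = 0.939), Anln (0.824) and Cenpf (0.777) followed the mean of the 34 genes most closely, and Birc5 (-0.491) and Kif2c (-0.403) ran against it. Each gene is part of that mean, and all values share a library and its depth. Outside every list, Rexo2 (0.986), Snord89 (0.985), Thumpd2 (0.983), Snx24 (0.981) and Diaph3 (0.98) were most like it over 6 libraries, picked from all tested genes.

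**Figure D4:**
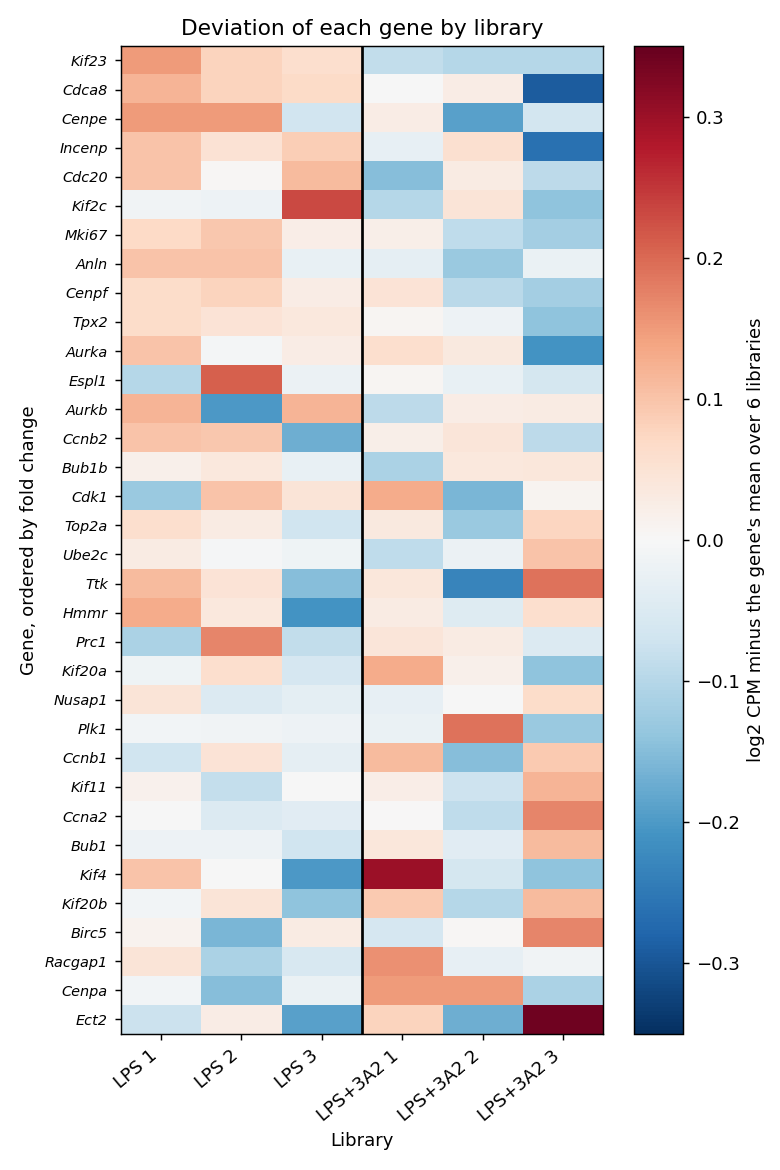
Deviation of log2 CPM from each gene's mean over 6 libraries (colour), with genes ordered by fold change and libraries in columns. The vertical line separates LPS from LPS plus 3A2. The lowest value, Cdca8 at -0.29, and the highest, Ect2 at 0.34, are both in replicate 3 with 3A2. Kif4 is at 0.30 in replicate 1 with 3A2.

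Among partners of these genes that are not among the 34, 0 of each list passed the threshold by edgeR, and at an unadjusted p under 0.05 each list held 0 to 2 genes higher and 0 to 3 lower, where 3.43% of all genes were higher and 3.09% lower. Of 18 genes of the anaphase-promoting complex and its regulators, 10 lay above 0 and 8 below, and Cdc16, a subunit, had the smallest p at 1.17-fold (95% interval 1.02 to 1.35, adjusted p = 0.743). Condensin and cohesin genes lay above 0 in 16 of 22, with a median log2 fold change of 0.048. Among them Pds5a, a cohesin regulator, stood at 1.11-fold (1.01 to 1.22, adjusted p = 0.748). In 3A2 replicate 3 the median deviation of that list was 0.13, against -0.089 in 3A2 replicate 2. Other kinetochore and checkpoint genes had 20 above and 14 below of 34, and Cenpm, a subunit of the inner kinetochore, stood at 0.707-fold (0.531 to 0.942, adjusted p = 0.725) from 9.08 ± 1.55 and 6.43 ± 0.657 CPM. Regulators of mitotic entry had 8 above and 12 below of 20, with Lin52 of the DREAM complex at 1.22-fold (0.96 to 1.56, adjusted p = 0.781). Other kinesin, spindle and centrosome genes had 17 above and 21 below of 38, and Numa1, which tethers dynein at spindle poles, stood at 0.883-fold (0.801 to 0.974, adjusted p = 0.719).

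Genes of earlier cell cycle phases were not called either. Of 21 tested G1 cyclins, CDKs, CDK inhibitors and pocket protein genes, 16 lay above 0, and Rbl1, which encodes p107, stood at 1.2-fold (95% interval 1.05 to 1.37, adjusted p = 0.719). S phase and DNA replication genes lay above 0 in 27 of 40, with a median log2 fold change of 0.031 beside -0.0078 for G2 and mitosis genes. The difference between these lists was not tested. Rfc3, a clamp loader subunit, had the smallest p at 1.23-fold (1 to 1.51, adjusted p = 0.748).

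**Figure D5:**
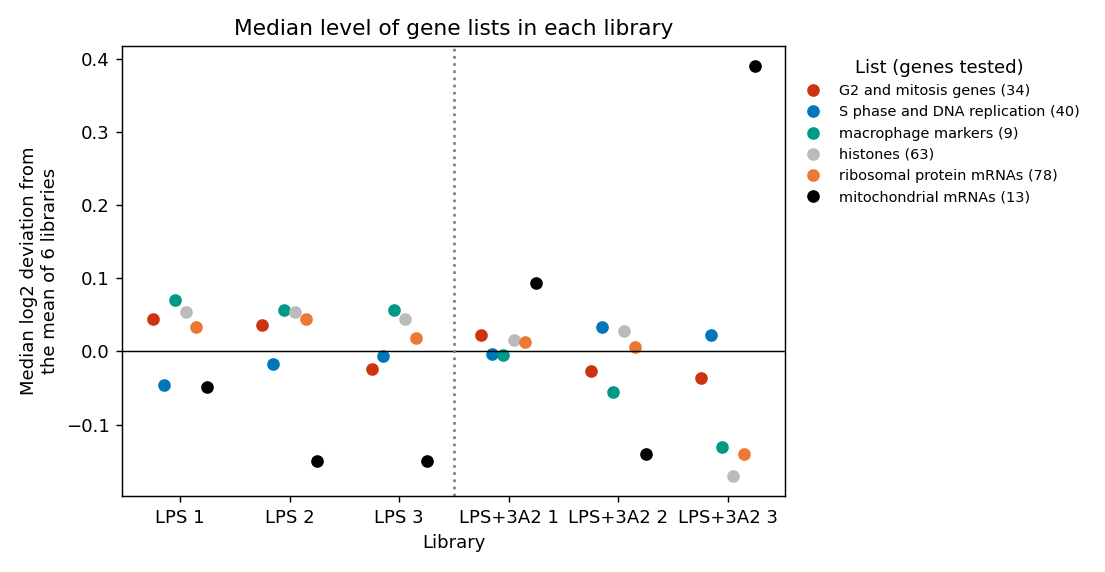
Median deviation of each gene list in each library, as log2 CPM minus the gene's mean over 6 libraries, with the number of genes tested in the legend. G2 and mitosis genes stay between -0.036 and 0.045, while mitochondrial mRNAs reach 0.39 in replicate 3 with 3A2.

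Libraries held between 6060732 and 7432553 counts, and log2 fold changes had a median standard error of 0.0871 among the 34 genes and 0.119 among all. Of macrophage markers, Lyz2, Cd14 and Csf1r had 2377 counts or more in each library, while Fcgr1 had 137 to 185, Adgre1 76 to 114 and Mertk 2 to 5. Summed over 10 markers they reached 7196 to 7309 CPM with LPS and 6191 to 6646 CPM with 3A2, with 1 of 9 tested markers above 0, where 50.4% of all genes were. Most of that sum was Lyz2, with a mean of 4337 CPM with LPS and 3780 CPM with 3A2, on the scaled totals used for the 34 genes. At an unadjusted p under 0.05, 3 of the 9 were lower, against 3.09% of all genes, and 0 passed the threshold. The part of that difference in the G2 and mitosis values was not tested. Other cell types left few counts. The sum over 11 fibroblast and adipocyte markers peaked at 4.35 CPM with LPS and 2.89 with 3A2, with Col1a2, Lum, Adipoq and Lep at 0. Epithelial and endothelial markers reached 3.89 and 4.29 CPM, with Epcam, Krt8, Krt18, Krt19 and Cdh1 at 0. Lymphocyte markers reached 0.673 and 0.165 CPM, with 6 of 8 at 0. Neutrophil and mast cell markers reached 7.45 and 6.43 CPM, with S100a9, Ly6g, Cpa3 and Mcpt4 at 0.

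Libraries were strand-specific, but whether counting used strand is not given in the sources used here, and 9 of the 34 genes share exonic bases with a gene on the other strand in GENCODE M21. The largest shares were 29.3% of Kif20a with Cdc23, 22.8% of Ube2c with Tnnc2, 15.1% of Kif4 with Pdzd11, 12.5% of Ccna2 with Exosc9 and 11.1% of Prc1 with Rccd1. These are shares of exon length and not of reads, so the values of these genes are uncertain by an amount that was not measured. Cdc20, Cdca8, Nusap1 and Plk1 share 2.84% to 7.09%. Top2a shares 1.35% with Gm23451 on its own strand.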

How the data were processed

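The authors deposited raw read counts per gene symbol, 1 column per library, from rRNA-depleted, strand-specific paired-end libraries, per the labels' protocols. HISAT2 and edgeR are named without version or role, per the submitters' processing notes, which also give the human build GRCh38, although the symbols are those of mouse (39282 of 40773 match RefSeq GRCm38). The sources used here give no counter, annotation or strand setting. Values typed into 3 unnamed columns were not used, and 0 entries named no gene.

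Sample titles gave each library's group and number. In edgeR 4.0.16 under R 4.3.3, filterByExpr removed low genes and TMM set the scaling. The 2 groups were compared with its quasi-likelihood F test (robust, two-sided, without covariates), and p-values were adjusted by Benjamini-Hochberg over all genes tested, threshold 0.05. CPM values use TMM-scaled totals, those of cell type markers unscaled totals. Alternatives used DESeq2 1.42.0 and limma 3.58.1. The test was tried on simulated data. No 2 libraries of a group agreed within sampling noise: chi-square per degree of freedom was 3.33 to 8.22 in 5 pairs and 22 between LPS plus 3A2 replicates 2 and 3.

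The genes and lists were chosen with earlier results of these data known. Given in every library are Mki67, Top2a, Cdk1, Ccnb1, Plk1, Aurkb, Cdc20, Cenpe, Kif11, Kif23 and Anln, with at least 1 of each role except spindle proteins. From each related list the gene with the smallest p is given by its fold change. Incenp, Cdca8, Tpx2 and Ect2 were given in full after their values were seen. The rule also names mt-Nd4l, Rpl30 and H3c13 from the mitochondrial, ribosomal protein and histone lists, at 1.22-, 1.18- and 0.854-fold; Rpl30 goes against most of its list.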

Additional observations from a re-analysis of the deposited data

How the results depend on the processing

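Of 15 results under 13 alternatives each, 179 of 195 values kept their direction and their side of the threshold, or for a count stayed within 1.5 times its main value and for the median within the spread between replicates (SD 0.0348). Within that, leaving out a library moved the number of the 34 genes above 0 from 15 to between 13 and 20 and their median log2 fold change from -0.0078 to between -0.034 and 0.018, so neither has a stable side of 0. Those 15 are 4 summaries and the log2 fold changes of 11 named genes. The number of the 34 genes past the threshold was 0 under every alternative, and their smallest adjusted p ran from 0.202 without LPS plus 3A2 replicate 2 to 0.999 with DESeq2. Over all genes, 0 passed with all libraries, 16 without a filter on low counts (13 higher, 3 lower) and 1 with the replicate number as a block, while leaving out a library gave 0 to 25. Without LPS plus 3A2 replicate 2 there were 20 higher and 5 lower, without LPS replicate 1 there was 1 higher, and without LPS plus 3A2 replicate 3 there was 1 lower; the cause was not tested. With the replicate block 0 of the 34 genes passed. Between LPS and LPS plus 3A2 libraries of the same number, deviations had correlations of -0.00653, 0.0318 and -0.156. For libraries of different numbers the correlations ran from -0.164 to 0.161. Whether the numbers pair the cultures was not tested. Genes close to 0 changed sign when a library was left out. The log2 fold change ran from -0.051 to 0.048 for Top2a, -0.081 to 0.063 for Cdk1, -0.0068 to 0.12 for Ccnb1, -0.062 to 0.1 for Plk1 and -0.13 to 0.026 for Aurkb. Groups of 3 were too small for a search for outlying samples. Counting alone gives the 34 genes a median coefficient of variation of 4.78%, beside 4.44% between replicates with LPS and 7.03% with 3A2. The replicate value was below that of counting for 15 genes with LPS and for 7 with 3A2.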
